A study of Sus scrofa with 9 samples.

Results

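Citrate synthase and other enzymes of the tricarboxylic acid cycle were examined in the muscle of Bama minipigs, miniature pigs of a Chinese breed that serve as models of diet-induced obesity. The list held 9 genes (CS, IDH2, IDH3G, OGDH, SUCLG1, SUCLG2, FH, MDH1 and MDH2), and an array probe belonged to a gene when its RefSeq accession mapped to that gene in a pig RefSeq gene table. By that rule 5 of the 9 genes had a probe, with 16 probes among the 27922 tested: 7 for CS, 3 for IDH2, 1 for SUCLG1, 2 for MDH1 and 3 for MDH2. IDH3G, OGDH, SUCLG2 and FH matched no probe and were not analysed here. Probes of 1 gene measured the same RNA samples and are not replicates of the diet.

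A high-fat high-sucrose diet (HFHSD) of 53% basal feed, 37% sucrose and 10% lard was eaten by 6 animals, and standard chow, the control diet (CD), by 3. All animals were gonadally intact, were 6 months old when the diets started and ate them for 23 months. Both sexes were used, and the sex of each animal is not given in the labels used here. RNA of the longissimus dorsi, a back muscle, was hybridised to Agilent porcine arrays with a single dye, 1 array per animal. The growth protocol gives a larger control group than the 3 CD arrays of the series.

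The tricarboxylic acid cycle runs in the mitochondrial matrix, where it oxidises acetyl-CoA from sugars, fats and amino acids and passes the electrons to the respiratory chain. Citrate synthase makes the entry step, and in muscle its activity is widely used as a measure of mitochondrial content. Fibres that rely on oxidation hold more of these enzymes than glycolytic fibres. Array values are RNA signals and give neither enzyme activity nor protein.

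Levels are the log2 of the processed signal minus that of the array's 75th percentile, so 0 is the 75th percentile and a difference of -1 is a halving. All 16 probes were well above background on all 9 arrays, and 0 arrays had saturated spots. CD 1 stood apart in quality: 36.7% of its spots were well above background, against 51.1% to 68.8% on the other arrays, and its negative control spots had an SD of 5.66 against 1.67 to 2.65. HFHSD 5 and HFHSD 6 shared slide 1, which held no CD array and was scanned on another day. These arrays were also read with another array design file than all others. Of the 16 probes, 13 carried a gene name in both design files. Slide, scan day and design file cannot be told apart here. CD 1 shared slide 2 with HFHSD 1, HFHSD 3 and HFHSD 4, and the other two CD arrays shared slide 3 with HFHSD 2. Markers of muscle fibres were bright in both groups, with a summed linear level over 11 markers of 8143 to 11049 in HFHSD muscle and 10178 to 13553 in CD muscle, in multiples of the array's 75th percentile.

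All 5 measured genes of the list had a lower mean level in HFHSD muscle than in CD muscle, and none passed the test across all probes. They are called cycle genes here, although MDH1 is cytosolic and works outside the cycle itself. CS, the entry enzyme, was closest to the threshold, and its HFHSD and CD values did not overlap. The median difference of the 5 genes, HFHSD minus CD, was -0.61 in log2, beside -0.085 over all 2613 tested genes. By limma with Benjamini-Hochberg adjustment, 0 of 16 probes had an adjusted p below 0.05, where 1.23% of all tested probes did (344 of 27922; 0.537% were lower and 0.695% higher). At an unadjusted p below 0.05 stood 11 of the 16 probes, all lower, against 16.5% of all probes in either direction. These 11 were probes of CS, SUCLG1 and MDH2 alone, and probes of 1 gene are not independent. By brightest probe 3 of 5 genes stood there, all lower, against 11.7% of all genes as lower. For genes taken by their brightest probe, 0 of 5 passed, against 0.995% of all genes. At an adjusted p below 0.1 stood 2 of the 16 probes, both of CS, against 4.34% of all probes in either direction and 2.14% as lower, and 1 of the 5 genes, against 2.53% of all genes as lower. All 16 probes and all 5 genes were lower in HFHSD muscle by sign, as were 52.1% of all probes and 57.6% of all genes. The 344 calls depended on single arrays: without HFHSD 2, 3, 5 or 6 there were 99, 75, 161 or 93, and without CD 1, 2 or 3 there were 32, 87 or 25.

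In 10 of the 16 probes every HFHSD array was below every CD array, which is 62.5% of them, against 6.11% of all probes. These were 6 CS probes, the SUCLG1 probe and the 3 MDH2 probes. By brightest probe the groups did not overlap for CS, SUCLG1 and MDH2, 3 of 5 genes, against 8.88% of all genes lower without overlap. IDH2 and MDH1 overlapped.

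**Figure D1:**
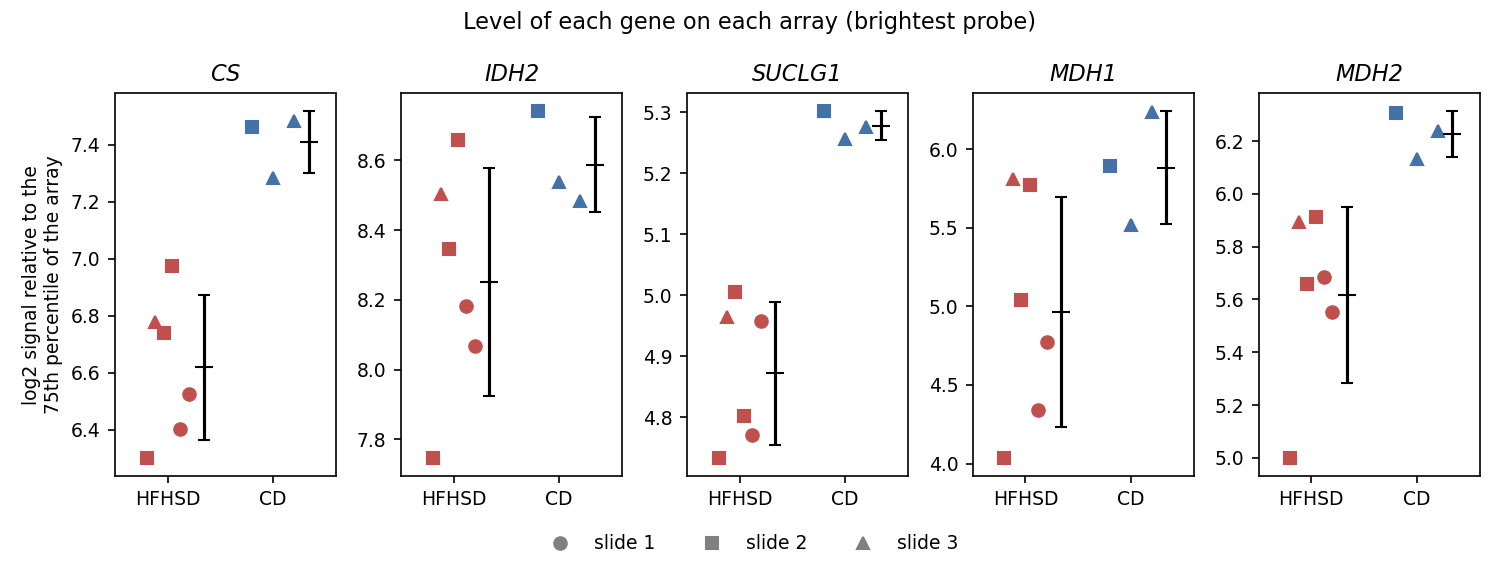
Level of CS, IDH2, SUCLG1, MDH1 and MDH2 on each array (brightest probe, log2 of the signal relative to the array's 75th percentile), with HFHSD arrays (n = 6) left and CD arrays (n = 3) right, each panel with its own axis. Symbols mark the slide and bars show the mean and SD; for CS, SUCLG1 and MDH2 all HFHSD points lie below all CD points.

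CS condenses acetyl-CoA with oxaloacetate to citrate. Its brightest probe had levels of 6.30, 6.78, 6.74, 6.98, 6.40 and 6.52 in HFHSD muscle, against 7.46, 7.28 and 7.48 in CD muscle. The highest HFHSD value, on HFHSD 4, was below the lowest CD value, and HFHSD 1, HFHSD 5 and HFHSD 6 were the lowest. The means were 6.62 ± 0.26 in HFHSD muscle (SD, n = 6) and 7.41 ± 0.11 in CD muscle (SD, n = 3). The log2 difference was -0.79 (SE 0.20, 95% interval -1.23 to -0.35), so the HFHSD level was 0.578 times the CD level, with an adjusted p of 0.0825 by limma over all probes. It passed the threshold, with an adjusted p of 0.0192 to 0.0404, under 3 of the alternative settings given in the closing section. Ranked by p, CS stood at 82 among 2613 genes.

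The other 6 CS probes gave log2 differences between -0.80 and -0.59, with adjusted p from 0.0825 to 0.245. Only the probe with the smallest difference overlapped: its highest HFHSD value was 2.99 and its lowest CD value, on CD 2, was 2.91. Within slide 2 the 7 CS probes were lower by sign, at -0.79 to -0.54 against CD 1, and within slide 3, where HFHSD 2 stood against CD 2 and CD 3, at -0.62 to -0.32. With slide as a fixed block, the brightest CS probe differed by -0.70 (adjusted p = 0.153).

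IDH2 is the mitochondrial NADP-dependent isocitrate dehydrogenase, which makes alpha-ketoglutarate and supplies NADPH for antioxidant defence. Its brightest probe ran from 7.75 through a median of 8.26 to 8.66 in HFHSD muscle, against 8.74, 8.54 and 8.48 in CD muscle. HFHSD 1 was the lowest array, and HFHSD 2 and HFHSD 4 lay within or above the range of CD 2 and CD 3. The means were 8.25 ± 0.33 in HFHSD muscle and 8.59 ± 0.14 in CD muscle, a log2 difference of -0.34 (SE 0.22, 95% interval -0.84 to 0.16, adjusted p = 0.519 by limma). The 3 IDH2 probes gave -0.43 to -0.34. Within slide 2 they were lower at -0.76 to -0.49, and within slide 3 they gave -0.0066, 0.13 and 0.11, so the sign of 2 of the 3 turned.

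SUCLG1 encodes the alpha subunit of succinate-CoA ligase, which turns succinyl-CoA into succinate and makes a nucleoside triphosphate directly. Its probe ran from 4.73 through a median of 4.88 to 5.01 in HFHSD muscle, against 5.30, 5.26 and 5.28 in CD muscle. The CD arrays lay within a narrow band above all HFHSD arrays. The log2 difference was -0.41 (SE 0.16, 95% interval -0.76 to -0.055), between 4.87 ± 0.12 in HFHSD muscle and 5.28 ± 0.023 in CD muscle, with an adjusted p of 0.232 by limma. It was -0.46 within slide 2 and -0.30 within slide 3.

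MDH2, the mitochondrial malate dehydrogenase, regenerates the oxaloacetate that CS uses. Its brightest probe ran from 4.998 through a median of 5.67 to 5.91 in HFHSD muscle, against 6.31, 6.13 and 6.24 in CD muscle. HFHSD 1 lay well below the other HFHSD arrays, of which the lowest was at 5.55. The log2 difference was -0.61 (SE 0.22, 95% interval -1.11 to -0.11, adjusted p = 0.208 by limma), between 5.62 ± 0.33 in HFHSD muscle and 6.23 ± 0.088 in CD muscle. The 3 MDH2 probes gave -0.71 to -0.53 and none overlapped, with -0.92 to -0.54 within slide 2 and -0.29 to -0.23 within slide 3.

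MDH1 is the cytosolic malate dehydrogenase, which works in the malate-aspartate shuttle and not in the cycle itself. Its brightest probe had levels of 4.03, 5.81, 5.04, 5.78, 4.34 and 4.77 in HFHSD muscle, against 5.89, 5.52 and 6.24 in CD muscle. HFHSD 2 and HFHSD 4 lay among the CD values and the other 4 HFHSD arrays below them. MDH1 had the largest difference of the 5 genes, -0.92 in log2, and also the widest interval (SE 0.41, 95% interval -1.84 to 0.0012, adjusted p = 0.304 by limma), since its SD was 0.73 in HFHSD muscle and 0.36 in CD muscle. Within slide 3 its 2 probes were near 0, at -0.068 and 0.038, while within slide 2 they gave -0.94 and -0.98. With slide as a fixed block, MDH1 differed by -0.53 (adjusted p = 0.584).

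**Figure D2:**
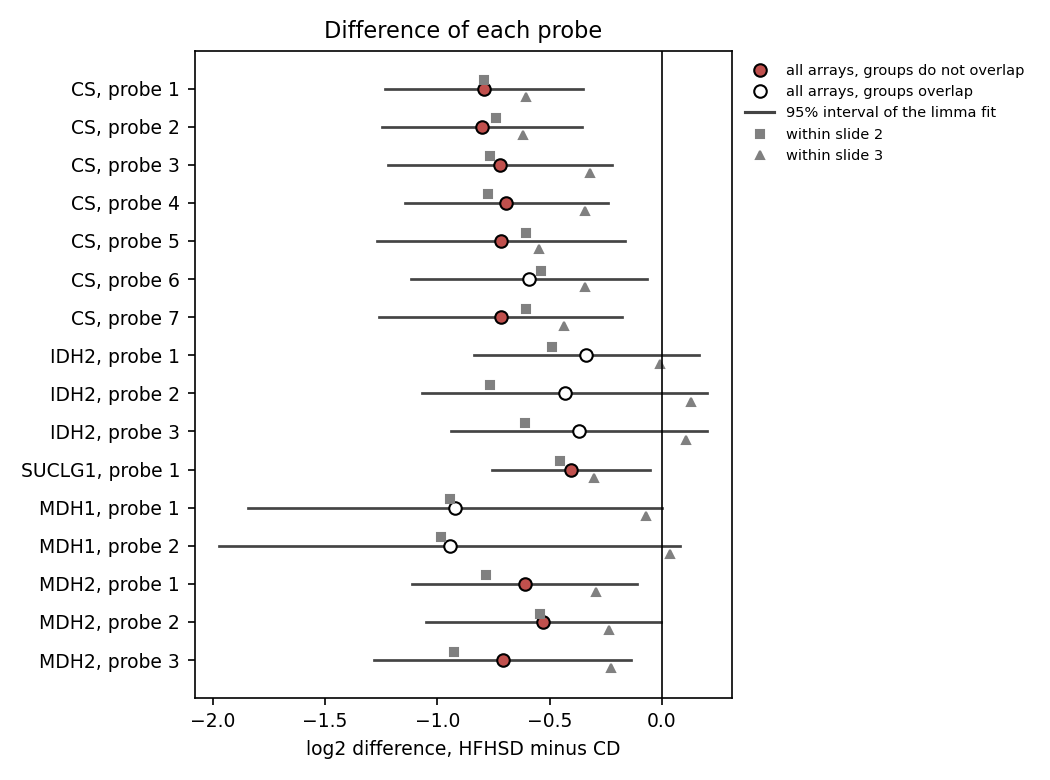
Log2 difference, HFHSD minus CD, of each of the 16 probes over all arrays (circles with the 95% interval of the limma fit), within slide 2 (squares) and within slide 3 (triangles), with the probes of a gene numbered from the brightest. Filled circles mark the 10 probes whose groups do not overlap; all circles lie below 0, and the slide 3 values of 2 IDH2 probes and 1 MDH1 probe lie above it.

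Set against the CD mean of each gene, all 5 genes were lower on 5 of the 6 HFHSD arrays, and 4 of 5 on HFHSD 4, where IDH2 was at 0.072. HFHSD 1 was the lowest array for all 5 genes, from -0.55 for SUCLG1 to -1.85 for MDH1. HFHSD 5 and HFHSD 6 came next for CS, at -1.01 and -0.89, and for MDH1, at -1.54 and -1.11. HFHSD 2 and HFHSD 4 were closest to CD, with CS at -0.63 and -0.43 and MDH1 at -0.073 and -0.11. CS and MDH1 thus ordered the HFHSD arrays alike at both ends, and the spread between these arrays was far wider for MDH1. HFHSD 5 and HFHSD 6 were the only arrays on slide 1, so for them animal and slide cannot be told apart.

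Whether the genes differed from each other in their response was tested with an exact two-sided permutation test over the 84 splits of the arrays into 6 and 3, a test chosen after the values were seen. The CS difference was lower than that of IDH2 by -0.45 in log2 (exact p = 0.0119, the smallest the design allows; adjusted p = 0.119 over 10 pairs). The IDH2 difference exceeded that of MDH2 by 0.27 (exact p = 0.0238, adjusted p = 0.119). CS and SUCLG1 differed by -0.38 (exact p = 0.0476, adjusted p = 0.159). None of the 10 pairs passed after adjustment, and a single pair at the smallest p could not have passed. The 2 malate dehydrogenases differed by -0.31 (MDH1 minus MDH2, exact p = 0.345).

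**Figure D3:**
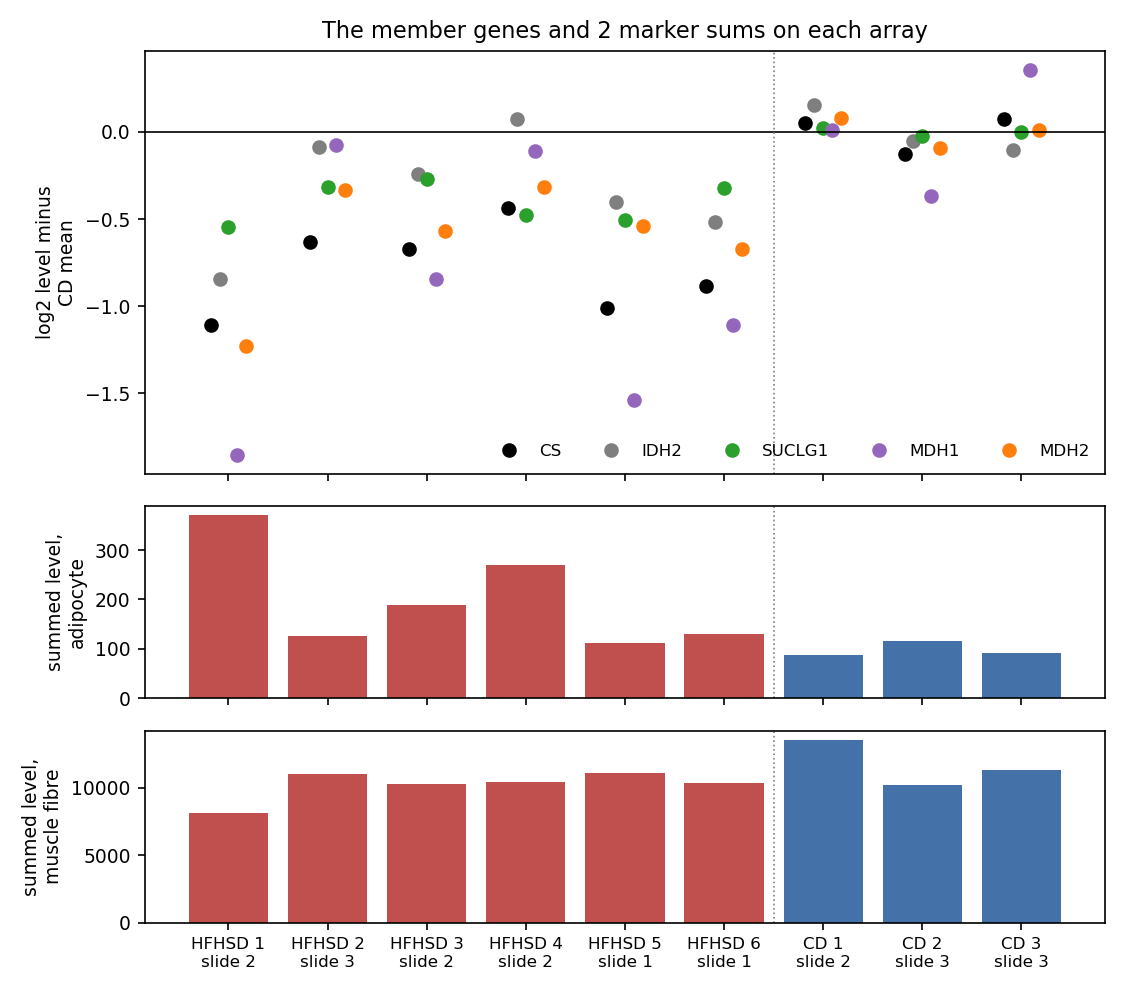
Upper panel, log2 level of each of the 5 genes on each array minus the gene's CD mean; lower panels, summed linear level of 8 adipocyte markers and 11 muscle fibre markers in multiples of the array's 75th percentile. HFHSD arrays stand left of the dotted line and CD arrays right; HFHSD 1 has the lowest cycle genes, the highest sum over the adipocyte list (371, most of it LIPE, which muscle also expresses) and the lowest muscle fibre sum (8143).

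Whole muscle holds several cell types, and fewer cells of a type and less RNA per cell cannot be told apart. All 8 measured adipocyte markers were higher in HFHSD muscle by sign, at a median of 1.35 in log2, and of these the lipid droplet protein CIDEA alone passed the test and rose (1.49, adjusted p = 0.0378 by limma), where 0.498% of all genes were called higher. The CIDEA call was lost when slide entered the fit as a fixed block, at 1.63 (adjusted p = 0.0886). A random block kept the call, at 1.56 (adjusted p = 0.0309). Normexp with percentile scaling lost it (0.95, adjusted p = 0.222), as did leaving out any single array other than HFHSD 4 (adjusted p up to 0.194). Of the 23 alternatives, 10 kept the CIDEA call. The summed level of the adipocyte markers was 112 to 371 in HFHSD muscle and 86.6 to 116 in CD muscle. LIPE and FABP4 made up most of this sum on every array, with means of 6.67 and 5.97 in HFHSD muscle and 5.47 and 5.65 in CD muscle. FABP4 differed by 0.32 (adjusted p = 0.737 by limma), so the sum says little about the other markers. The fat cell hormone ADIPOQ was at 2.37, 0.63, 2.25, -0.94, 1.70 and 2.58 in HFHSD muscle, against -1.13, -1.25 and -0.72 in CD muscle. HFHSD 4, which had the highest CS of the HFHSD arrays, had ADIPOQ within the CD range, although its summed level was 271. LIPE, a lipase that muscle also expresses, was at 7.85 on HFHSD 4 and 7.91 on HFHSD 1 and made up most of the sum on both arrays. PLIN1, which coats fat droplets, exceeded background on 5 of the 6 HFHSD arrays and on 0 of the 3 CD arrays. A probe was tested when it was well above background on at least 3 arrays, and PLIN1 met this through HFHSD arrays alone. Its higher sign is thus not independent of the filter and adds no support to the count of 8. With normexp and percentile scaling PLIN1 gave -0.16. The part of adipocytes in the cycle genes' difference was not tested.

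Fibre markers did not move as one group. Of 11 measured muscle fibre markers, 9 were lower and 2 higher by sign and 0 passed, with a median log2 difference of -0.19 (2 at an unadjusted p below 0.05, both lower). Without CD 1 that median was -0.020. MYH2, the myosin of fast oxidative fibres, averaged 8.12 ± 0.57 in HFHSD muscle and 9.11 ± 0.12 in CD muscle without overlap (log2 difference -0.996, adjusted p = 0.158). MYH4, the myosin of fast glycolytic fibres, averaged 9.51 ± 0.50 in HFHSD muscle and 8.90 ± 0.28 in CD muscle (0.61, adjusted p = 0.370). TNNT3, a fast troponin, had the smallest p of the list and went the other way from MYH4, without overlap (-1.04, adjusted p = 0.108 by limma). MYH1, another fast myosin, differed by 0.014 (adjusted p = 0.989) and the slow troponin TNNT1 by -0.029 (adjusted p = 0.983). MYH7, the slow myosin, differed by -0.22 (adjusted p = 0.821) and was lowest on HFHSD 1, at 8.89. The part of fibre composition in the cycle genes' difference was not tested. Of 4 macrophage markers, the Fc receptor FCGR3A rose (1.19, adjusted p = 0.0338) and 3 were lower by sign. The FCGR3A call was lost when slide entered the fit as a fixed block, at 0.96 (adjusted p = 0.0701). A random block kept this call too, at 1.07 (adjusted p = 0.0253). Leaving out any single array lost it (adjusted p from 0.0515 to 0.191), and 11 of the 23 alternatives kept it. The 4 endothelial markers had a median of -0.089 and 3 fibroblast markers of -0.21. The 1 erythrocyte marker, HBE1, gave -0.096. HBE1 was dim, at -4.72 in HFHSD muscle and -4.63 in CD muscle, and well above background on 3 HFHSD and 0 CD arrays. Blood content was therefore not assessed.

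The remaining enzymes of the cycle were taken from a list of 12 genes, of which 5 were measured. All 5 were lower in HFHSD muscle by sign and 0 passed, the median log2 difference was -0.45, and 2 stood at an unadjusted p below 0.05, against 11.7% of all genes lower at that level. IDH3B, a subunit of the NAD-dependent isocitrate dehydrogenase of the cycle, averaged 6.30 ± 0.26 in HFHSD muscle and 6.74 ± 0.12 in CD muscle, without overlap (-0.45, adjusted p = 0.297). DLST, the succinyltransferase of the alpha-ketoglutarate dehydrogenase complex, differed by -0.56 (adjusted p = 0.236). Of the succinate dehydrogenase subunits, the iron-sulfur protein SDHB differed by -0.46 (adjusted p = 0.467) and the membrane anchor SDHD by -0.45 (adjusted p = 0.504). Enzymes measured along the cycle, from CS through IDH3B, DLST, SUCLG1 and SDHB to MDH2, thus had the same sign.

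Of 15 genes for pyruvate entry into the cycle, 6 were measured; 4 were lower and 2 higher by sign, 0 passed, and their median was -0.16, with -0.41 without CD 2 and -0.054 without CD 3. DLAT, the acetyltransferase of the pyruvate dehydrogenase complex, averaged 3.42 ± 0.25 in HFHSD muscle and 4.06 ± 0.20 in CD muscle without overlap (-0.64, adjusted p = 0.148). The pyruvate dehydrogenase kinases, which switch the complex off, had opposite signs. PDK1 was at 1.06 ± 0.54 in HFHSD muscle and 0.30 ± 0.18 in CD muscle, higher on every HFHSD array (0.76, adjusted p = 0.263), where 4.17% of all genes were higher without overlap. PDK4 was at 8.74 ± 0.61 in HFHSD muscle and 9.53 ± 0.16 in CD muscle (-0.79, adjusted p = 0.295). PDHB, a subunit of the complex's decarboxylase, differed by -0.14 (adjusted p = 0.820).

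Of 23 genes that refill the cycle, export citrate or run the malate-aspartate shuttle, 11 were measured; 7 were lower and 4 higher by sign, 0 passed, and the median was -0.093. GOT1, the cytosolic aspartate aminotransferase that works beside MDH1 in the shuttle, was at 3.85, 5.70, 4.20, 5.99, 4.11 and 4.21 in HFHSD muscle, against 5.93, 5.60 and 6.72 in CD muscle. As with MDH1, HFHSD 2 and HFHSD 4 lay among the CD values and the other HFHSD arrays below them. The GOT1 difference was -1.41 (SE 0.52, adjusted p = 0.208), and that of GOT2, its mitochondrial counterpart, -0.47 (adjusted p = 0.411). PCK2, the mitochondrial phosphoenolpyruvate carboxykinase, differed by -1.11 (adjusted p = 0.211). PCK1, the cytosolic form, differed by -1.75 (adjusted p = 0.460) through CD 1 alone, at 5.02, and by 0.029 without that array.

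Of 25 genes of mitochondrial content and biogenesis, 8 were measured; 6 were lower and 2 higher by sign, 0 passed, and the median was -0.26. VDAC2, a channel of the outer membrane, averaged 5.85 ± 0.38 in HFHSD muscle and 6.48 ± 0.070 in CD muscle without overlap. Its log2 difference was -0.63 (adjusted p = 0.228 by limma), and 8.88% of all genes were lower without overlap. VDAC1 and VDAC3, channels of the same family, differed by only -0.061 and 0.040, and TFB1M and TFAM by -0.030 and 0.0028. TOMM20, a receptor for protein import, differed by -0.54 (adjusted p = 0.380), and the matrix chaperonin HSPD1 by -0.46 (adjusted p = 0.423; -0.27 without CD 2 and -0.69 without CD 1). PPARGC1A, the coactivator that drives mitochondrial biogenesis, averaged 2.61 ± 0.81 in HFHSD muscle and 4.08 ± 1.63 in CD muscle (-1.47, adjusted p = 0.321), and the difference was -0.60 without CD 3 and -2.23 without CD 2.

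**Figure D4:**
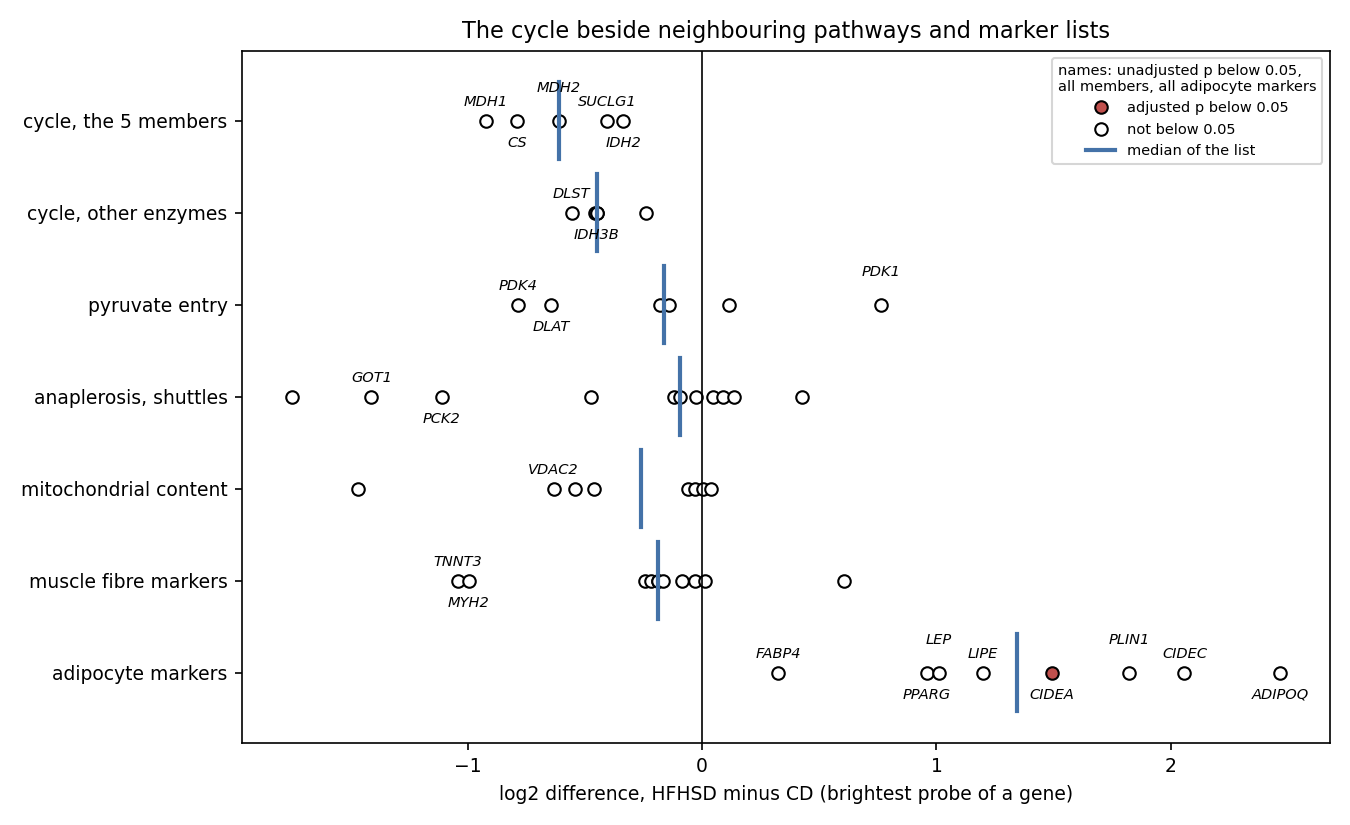
Log2 difference, HFHSD minus CD, of each measured gene (brightest probe) in the cycle, neighbouring pathways and the muscle fibre and adipocyte marker lists, with the median of each list as a bar. Filled points have an adjusted p below 0.05, which among the plotted genes only CIDEA has; the 5 cycle genes and the 5 other cycle enzymes all lie below 0, with medians of -0.61 and -0.45.

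The genes whose profile over the 9 arrays was most like that of CS were found by the root mean square of the difference between centred log2 profiles, whose median over 2612 other genes was 0.546. The 5 nearest were SLC25A3, the mitochondrial phosphate carrier (0.117), COX5B, a subunit of cytochrome c oxidase (0.127), ATP5G1, a subunit of the ATP synthase ring (0.129), DLAT (0.134) and ATP5L, another ATP synthase subunit (0.153). Their log2 differences were -0.66, -0.63, -0.69, -0.64 and -0.67, with adjusted p from 0.104 to 0.176 by limma. The CS profile holds the difference between the diets. Lower values of similar size in these 5 genes were therefore fixed by the choice and are no support for the CS difference. Among the cycle genes, MDH2 ranked 13 in likeness to CS (0.172), IDH2 67, SUCLG1 88 and MDH1 560 (0.395). This is a description over arrays that share the diet groups and the slides.

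The size of these differences depended on how the arrays were put on a common scale. With the normexp background correction followed by percentile scaling, CS differed by -0.30 (adjusted p = 0.649), MDH1 by -0.46 and MDH2 by -0.15, and IDH2 and SUCLG1 turned to 0.087 and 0.0095. After normexp the log2 of the 75th percentile was 9.05 on CD 1 and 7.87 to 8.47 on the other arrays. With CD 1 left out of that setting, chosen after this was seen, CS differed by -0.79 (adjusted p = 0.0846), IDH2 by -0.34, SUCLG1 by -0.44, MDH1 by -0.95 and MDH2 by -0.62. A second view, also chosen after the values were seen, set the cycle genes beside the 331 genes at least as bright as the dimmest of the 5 (mean level of at least 5.01). The median difference of those 331 was -0.17 in the reported setting and 0.31 with normexp and percentile scaling. Relative to it, CS was at -0.62 in the reported setting and -0.61 with normexp and percentile scaling, and the median of the 5 genes at -0.44 and -0.46. The subtraction cancels any shift common to all genes of an array. Agreement between settings that differ by such a shift was therefore fixed in advance and is no support for the difference.

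**Figure D5:**
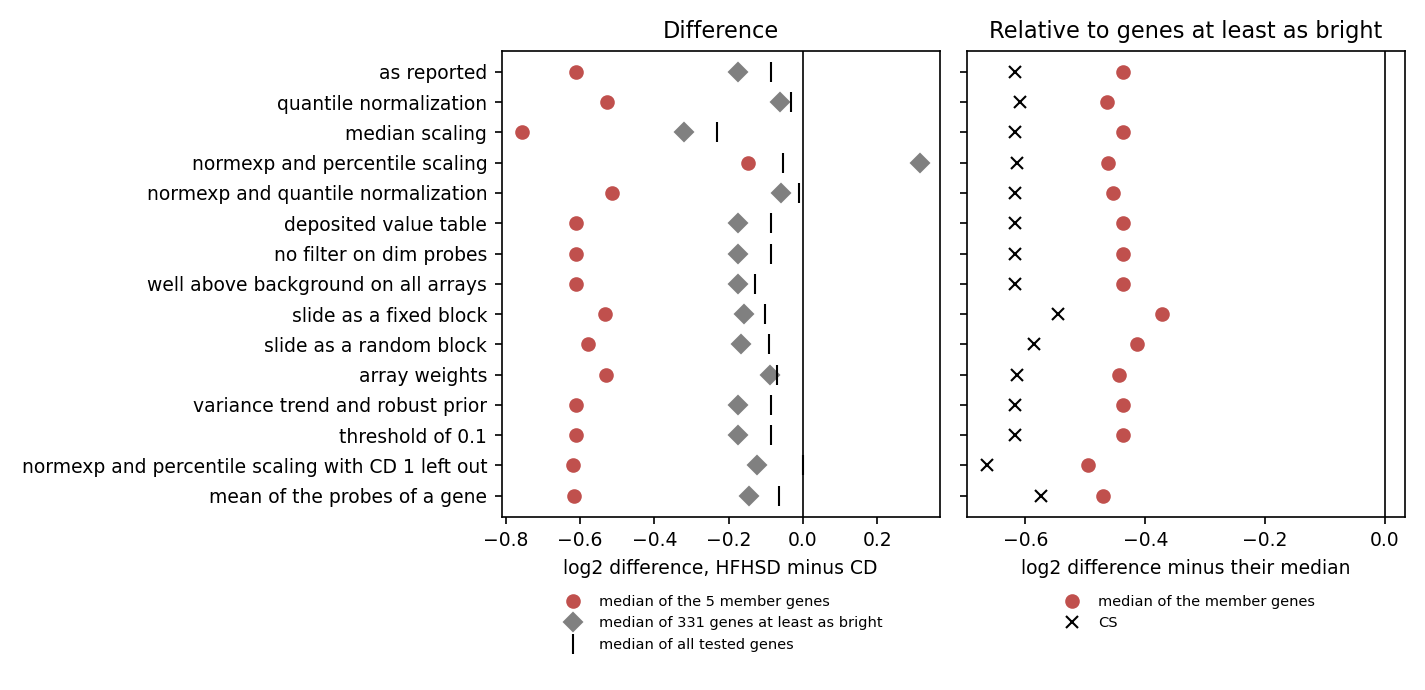
Left, log2 difference (HFHSD minus CD) under the reported setting and each alternative other than leaving out a single array, for the median of the 5 cycle genes, the median of 331 genes at least as bright and the median of all tested genes; right, the cycle genes' median and CS minus the median of those 331 genes. The left values range widely, from -0.76 with median scaling to -0.15 with normexp and percentile scaling for the cycle genes, and the right values of CS lie between -0.66 and -0.55 in the settings plotted. With single arrays left out, which is not plotted, they lay between -0.69 and -0.55. Subtracting the median cancels any shift common to all genes of an array, so scaling by such a shift could not move the right values.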

How the data were processed

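Per the file headers, the authors read the spot intensity of each array with Agilent Feature Extraction 10.7.3.1. The processed signal is linear, with background removed within the array and no scaling across arrays. The series-wide deposited value table held identical intensity values, with 0 spots differing on each array. Here control spots and outlier spots were left out, spots of a probe were averaged on the log2 scale, and each array's 75th percentile was subtracted. Of 43603 probes, 22 were dropped for outlier spots and 27922 were well above background on at least 3 arrays and tested.

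Through probe accessions and a RefSeq gene table of Sscrofa11.1, used for names only, 6891 probes of 3196 genes were named and 36712 were not; 2 with conflicting names stayed unnamed. The array files name no genome build, so no coordinates are given. The brightest probe stands for a gene, which gave 2613 tested genes. The test of HFHSD against CD used lmFit and eBayes of limma 3.58.1 (R 4.3.3; two-sided, no covariates), adjusted by Benjamini-Hochberg over all tested probes at 0.05; the procedure was tested on simulated data. Each array is 1 animal, and the number of arrays limits the precision. Replicate numbers were given in accession order and only name arrays.

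Members and lists were chosen with earlier results of these data known. Named genes were all members, up to 4 genes per list with the smallest p, and the 5 genes most like CS. DLD, VDAC1, VDAC3, TFB1M and TFAM are named as the rest of their lists, and the closing section on settings leaves them out. Marker genes, of which several are named beyond this rule, were chosen after their values were seen. The normexp alternative (offset 50) used the median spot signal, since the scanner files used here hold no mean signal column. Promoter motifs were not analysed here, and 1 further gene is not reported here.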

Additional observations from a re-analysis of the deposited data

Results flagged for a closer look

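HFHSD 1 stood apart from the other HFHSD arrays for SDHD and HSPD1. SDHD was at 3.11 on HFHSD 1, and the nearest other HFHSD array was at 4.02, a gap of 0.652 of the group's range, above Dixon's 95% critical value for 6 arrays. HSPD1 was at 3.21 on HFHSD 1, with the nearest other array at 3.84 and a gap of 0.721 of the range. Of 36 probes examined in the HFHSD group these 2 were past the critical value, and chance alone puts about 1 in 20 groups there. MDH2 on HFHSD 1 came just under it, at 0.608. Without HFHSD 1 the MDH2 difference was -0.49 and the SDHD difference -0.26.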

How the results depend on the processing

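CS was lower in HFHSD muscle under all 23 alternatives, 22 planned and 1 added after seeing the data, at -0.94 (median scaling) to -0.30 (normexp and percentile scaling). It passed with normexp and quantile normalization (-0.68, adjusted p = 0.0192), with probes well above background on all arrays (-0.79, 0.0404), with a variance trend and robust prior (-0.79, 0.0397) and at a threshold of 0.1 (-0.79, 0.0825). The deposited value table, no filter on dim probes, probes well above background on all arrays, the trend and robust prior and the threshold of 0.1 could not change the CS difference. Leaving out single arrays gave -0.86 to -0.73, with adjusted p from 0.0778 to 0.305. The median of the cycle genes was -0.15 with normexp and percentile scaling, and -0.67 to -0.49 with single arrays left out. That scaling turned IDH2 (0.087), SUCLG1 (0.0095), SDHB (0.092), PDHB (0.37), and the medians of pyruvate entry (0.38), anaplerosis and shuttles (0.32), mitochondrial content (0.026) and muscle fibre markers (0.33). Also turned were PDHB (0.012) and pyruvate entry (0.012) with normexp and quantile normalization, pyruvate entry (0.032) and anaplerosis (0.033) with array weights, PDHB, PCK1 and anaplerosis without CD 1 (single arrays left out gave -0.32 to 0.018, -2.84 to 0.029 and -0.22 to 0.029), and PCK1 (0.092) with normexp, percentile scaling and CD 1 left out. The cause was not tested beyond leaving out CD 1. Cycle probes called, 0 in the reported setting, were 2 with normexp and quantile normalization, 2 with probes well above background on all arrays, 1 with array weights, 2 with the trend and robust prior and 2 at the threshold of 0.1; with any single array left out there were 0.

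Probes called among all, 344 as reported (43.6% of them lower), were 127 with median scaling (63.0% lower), 88 with normexp and percentile scaling (28.4% lower), 205 with CD 1 left out of that (56.1% lower), 856 with normexp and quantile normalization (52.3% lower), 66 with no filter on dim probes (53.0% lower), 736 with probes well above background on all arrays (61.8% lower), 84 with slide as a fixed block, 677 with slide as a random block, 1205 with array weights, 612 with the trend and robust prior and 1211 at the threshold of 0.1. With single arrays left out they were 25 to 325. The median of all probes, -0.024 as reported, was -0.17 with median scaling, -0.17 with normexp and percentile scaling and -0.20 with no filter. No paired analysis was possible because the replicate numbers were given in accession order. Signal over background was lowest on CD 1.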
